A study of Mus musculus with 12 samples.

Results

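The clustered replication-dependent histone genes are described here in the RNA of mouse oocytes with and without Lsm14b. Members were taken by their symbol, which begins with Hist1h, Hist2h, Hist3h or Hist4h in the deposited expression table, and 67 of its 24259 genes have such a symbol. By the symbol, 6 belong to the linker histone H1, 18 to H2A, 18 to H2B, 12 to H3 and 13 to H4. The H2B genes include the pseudogene Hist3h2bb-ps, so that 17 of them are coding. Cluster 1 on chromosome 13 holds 53 of them, cluster 2 on chromosome 3 holds 10, cluster 3 on chromosome 11 holds 3, and Hist4h4 lies alone on chromosome 6.

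The core histones H2A, H2B, H3 and H4 form the protein spool around which DNA is wound, and H1 binds the linker DNA between spools. Most cells make them during DNA replication, from many small genes without introns that lie close together. Their mRNAs are unusual because they end in a short stem-loop in place of a poly(A) tail. The stem-loop binding protein Slbp, the U7 small nuclear RNP and a cleavage complex make this end, and Slbp later promotes translation of the mRNA. A growing oocyte does not replicate its DNA but stores histone mRNA and protein for the embryo. Lsm14b, the gene that was knocked out, encodes an RNA-binding protein of the LSM14 family, whose members are found in cytoplasmic RNP granules.

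Germinal vesicle (GV)-stage oocytes, which are fully grown and arrested before the meiotic divisions, came from WT and Lsm14b KO mice. The mice were 3 weeks old, had received 5 IU of pregnant mare serum gonadotropin (PMSG) each, and were used 46 h later. The KO mice were homozygous for the germline allele tm1a(KOMP)Mbp, a reporter insertion into Lsm14b that is present in all cells of the animal, on a C57BL/6J background, and no Cre was used. About 1500 pooled oocytes were lysed with cycloheximide, an agent that holds ribosomes on mRNA, and separated on a sucrose gradient into 28 fractions. Fractions 1 to 10 formed the RNP pool, which holds light particles, and fractions 11 to 28 formed the polysome pool, which holds mRNAs with ribosomes. Each pool was sequenced in 3 WT and 3 KO libraries, 12 in all, as paired reads of 150 bases after Smart-seq2 amplification. The labels do not say whether the 3 libraries of a group came from separate animals, so the p-values measure only the spread between these libraries.

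The unit is FPKM, fragments per kilobase of the transcript, scaled to the depth of each library. Levels of different genes can thus be compared per length, and each level is relative to the other RNA of its pool. A difference between pools is therefore one of relative levels, and does not give the fraction of an mRNA that was with ribosomes. The table holds no counts, so the number of fragments behind each value is unknown here, and 10566 to 12720 genes were above 0 per library. Lsm14b itself lay at 27.4 to 34.6 FPKM in the WT RNP libraries and at 0 to 0.893 FPKM in the KO RNP libraries. In the polysome pool it lay at 11.3 to 15.3 FPKM in WT and at 0 to 0.260 FPKM in KO. Of 10 oocyte markers, all were at 1 FPKM or more in every library. Their summed level was 19757 to 21580 FPKM in WT and 23106 to 25210 FPKM in KO polysomes, and 4875 to 5050 FPKM in WT and 7219 to 7801 FPKM in KO RNP. Of 8 leukocyte, endothelial and blood markers, 4 were listed at 0 in every library, among them the leukocyte genes Ptprc and Adgre1, and the endothelial gene Cdh5 was at no more than 0.0384 FPKM. The endothelial gene Pecam1, in contrast, was at 13.2 to 41.0 FPKM in all 12 libraries, and the leukocyte gene Cd68 was above 0 in 9 and reached 8.71 FPKM. The summed level of the 8 was 13.9 to 36.4 FPKM in WT and 25.9 to 28.6 FPKM in KO polysomes, and 23.2 to 42.1 FPKM in WT and 24.8 to 28.9 FPKM in KO RNP. The 7 theca and stroma markers summed to at most 2.58 FPKM in any library. The part of such cells and of the oocyte marker level in the histone values was not tested. As the pools are bulk RNA, fewer cells of a type and less RNA per cell cannot be told apart.

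The stem-loop was searched for in the annotated transcripts, because it sets how these mRNAs end and therefore which RNA the measured gene models cover. In GENCODE M21 on GRCm38, 49 members had at least 50 bases after the stop codon, and 45 of these held the 16-base stem-loop of the metazoan histone consensus within 120 bases of it. Among the other 20785 genes with such a sequence, 3 did (0.0144%), namely H2afx, H2bfm and Nemp1. Members were searched in a single transcript each, and the other genes in every coding transcript with at least 50 bases after the stop codon. The 45 loops had 8 forms, of which the form of Hist1h1e was shared by 25 members, that of Hist1h4d by 7 and that of Hist1h2bk by 6. Those forms, the single form of Hist1h3g and the loop of Hist4h4 are printed below 5′ to 3′ on the strand of the gene, with the stem-loop in capitals and 5 bases on each side.
Hist1h1e: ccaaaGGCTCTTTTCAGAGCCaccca
Hist1h2bk: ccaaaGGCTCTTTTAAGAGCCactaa
Hist1h3g: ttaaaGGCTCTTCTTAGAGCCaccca
Hist1h4d: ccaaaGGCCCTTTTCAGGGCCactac
Hist4h4: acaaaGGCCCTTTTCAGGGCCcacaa

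These loops lie in the 3′ untranslated part of the single exon, at chr13:23621782-23621797 on the minus strand for Hist1h1e, chr13:22036300-22036315 on the plus strand for Hist1h2bk and chr13:23535889-23535904 on the plus strand for Hist1h3g. For Hist1h4d the loop lies at chr13:23581950-23581965 on the plus strand, and for Hist4h4 at chr6:136803998-136804013 on the minus strand. No form was shared between an H4 gene and a gene of another class. The gene models behind the FPKM values follow the loop: in 39 of 40 members that could be compared, the deposited locus ended 4 to 9 bases after it. GENCODE places further sequence beyond that point in many members, with 1153 bases after the loop in Hist1h1e, 770 bases in Hist1h4d and 2445 bases in Hist4h4. The FPKM of these 39 members therefore refers to a transcript that ends just after the stem-loop.

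In 4 of the searched members, Hist1h2bc, Hist1h2bp, Hist1h2br and Hist2h2be, the transcript searched held no stem-loop. Other transcripts of these genes were not searched, so the genes are not shown to lack it. Hist1h2bc was the member of the highest level, and its searched GENCODE transcript has 2 exons and 742 bases after the stop codon. Hist2h2be, a replacement-type H2B gene that is transcribed outside S phase in other tissues, was listed at 0 FPKM in all 12 libraries.

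Sequence shared between members limits how well reads can be given to one of them. Of windows of 150 bases, the length of a read, 53 members had at least 1 that also occurred in a transcript of another gene, 23 had more than 50% shared, and 14 had none. All 5 members with every window shared (100%) came from cluster 2, Hist2h3b among them. Hist1h4d and Hist1h2aa shared no window exactly, and Hist1h1e shared 19.5%, Hist1h2bc 17.4%, Hist1h3a 23.4%, Hist1h4c 7.60% and Hist4h4 0.737% of windows. With up to 2 mismatches inside the class, the shares were 6.98% in Hist1h4d, 0 in Hist1h2aa and Hist4h4, 6.01% in Hist1h1e and 67.3% in Hist1h3a. They were 19.5% in Hist1h4c and 23.4% in Hist1h2bc. All these shares refer to the whole GENCODE transcript, which in many members runs far past the end of the deposited gene model. The share within the deposited model was not computed and can be higher, as in Hist1h4c and Hist1h4d, whose coding parts are a small part of the transcript. The proteins are closer still, because the 13 H4 genes encode 1 protein and the 12 H3 genes encode 3. In the table, 8 members share 4 loci with a near-identical neighbour, and their values are uncertain.

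Of the 804 values of 67 genes in 12 libraries, 51.7% were listed at exactly 0. Zeros were common in the whole table, where only 10566 to 12720 of the 24259 genes were above 0 per library. Of the members, 9 genes were at 0 in all 12 libraries, and 9 were above 0 in all 12. Genes that every cell uses are listed at 0 in this table too, with the splicing gene Snrpf at 0 in 6 libraries and the cap-binding gene Ncbp1 at 0 in 3, so a 0 does not show that an mRNA was absent. A library at 5 FPKM or more stood beside a library at 0 of the same group in 31 combinations of member and group, which involved 21 members. The shares over all genes were not computed for this count and for genes at 0 or above 0 in all 12 libraries. Replicates of a group correlated with r of 0.60 to 0.87 over the 35 members tested in the 12 libraries, beside 0.88 to 0.96 over all 10949 genes tested; these are correlations across genes, which are not independent. Summed over the family, the level was 993 ± 91.6 FPKM in WT polysomes, 1004 ± 48.9 in KO polysomes, 895 ± 99.9 in WT RNP and 902 ± 80.1 in KO RNP (SD, n = 3), which was 0.147% to 0.222% of all FPKM of a library. The groups overlapped in both pools.

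**Figure D1:**
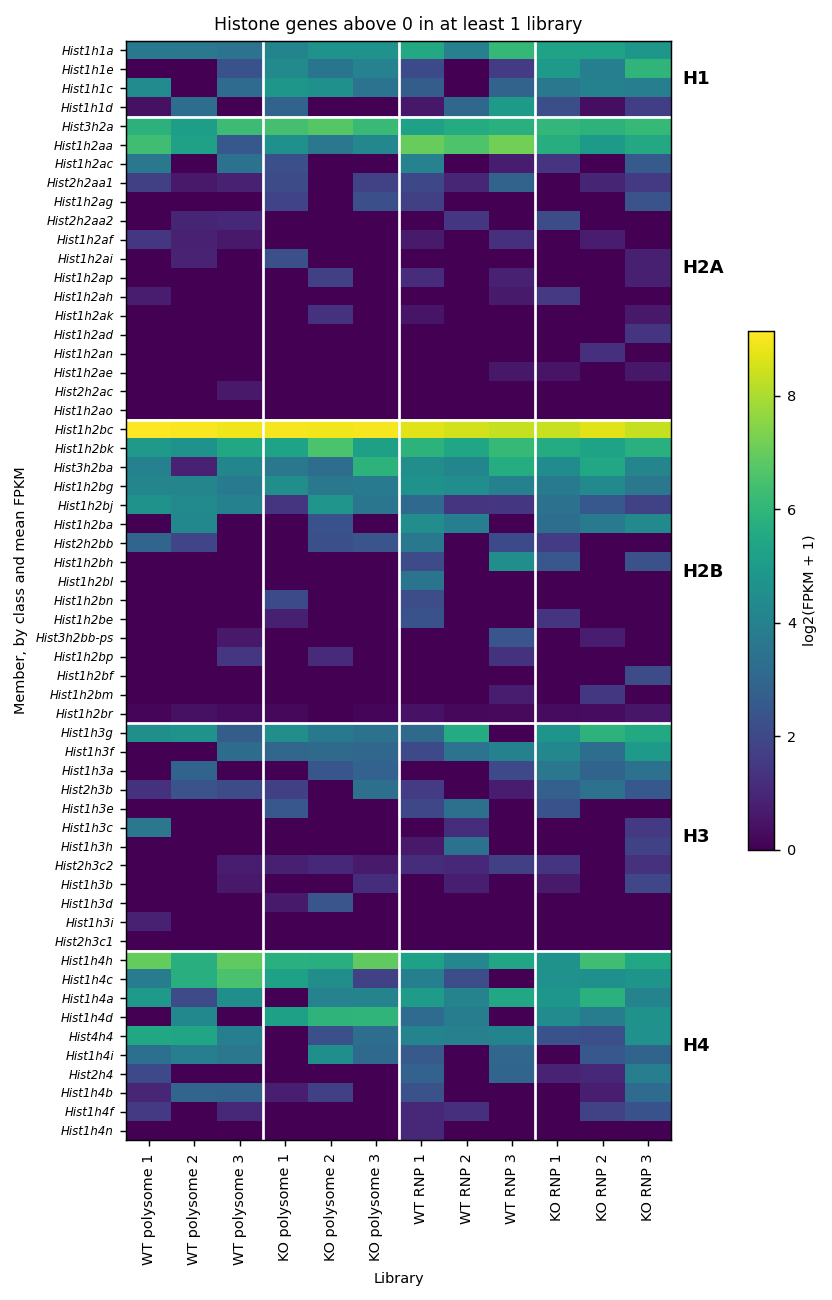
Level of each histone gene above 0 in at least 1 library, as log2(FPKM + 1) by colour, with 1 row per gene ordered by class and mean and 1 column per library. The row of Hist1h2bc is bright in all 12 libraries (317 to 560 FPKM), while most other rows are at 0 in several libraries.

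A single H2B gene carried much of the family's signal. Hist1h2bc measured 560, 528 and 471 FPKM in WT polysomes and 513, 493 and 519 FPKM in KO polysomes. Its RNP levels were 419, 367 and 318 FPKM in WT and 331, 417 and 317 FPKM in KO. It was the highest member in every library by a wide margin and made up 34.0% to 57.0% of the summed FPKM of the family. The next members by mean over the 12 libraries were Hist1h4h (63.6 FPKM), Hist3h2a (63.2), Hist1h2aa (55.8), Hist1h2bk (47.7) and Hist1h1a (27.4), each above 0 in all libraries. The leading H3 gene was Hist1h3g, with a mean of 23.5 FPKM and a range of 0 to 59.1 FPKM. H2B genes together held 46.3% to 66.0% of the family's level and H3 genes 1.82% to 10.6%.

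H2A and H2B genes often lie head to head and share the DNA between their starts, which allowed their levels to be set side by side. Of 13 such pairs with starts less than 1000 bases apart, 12 joined an H2A and an H2B gene, and in the pairs with a high member the partner was listed far lower. Hist1h2bc averaged 438 FPKM and its H2A partner Hist1h2ac, with 251 bases between them, 3.98 FPKM. Hist1h2bk averaged 47.7 FPKM beside 0.257 FPKM for Hist1h2ah, and Hist3h2a averaged 63.2 FPKM beside 0.461 FPKM for the pseudogene Hist3h2bb-ps. Of windows of 150 bases, 84.8% in Hist1h2ah and 60.9% in Hist1h2bk were shared exactly with other genes. The level of such genes depends on how shared reads were divided, which is unknown here. The share was 5.62% in Hist1h2ac and 0 in Hist3h2bb-ps. Hist1h2aa and Hist1h2ba, the H2A and H2B variants first known from testis, averaged 55.8 and 8.22 FPKM with 306 bases between them.

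**Figure D2:**
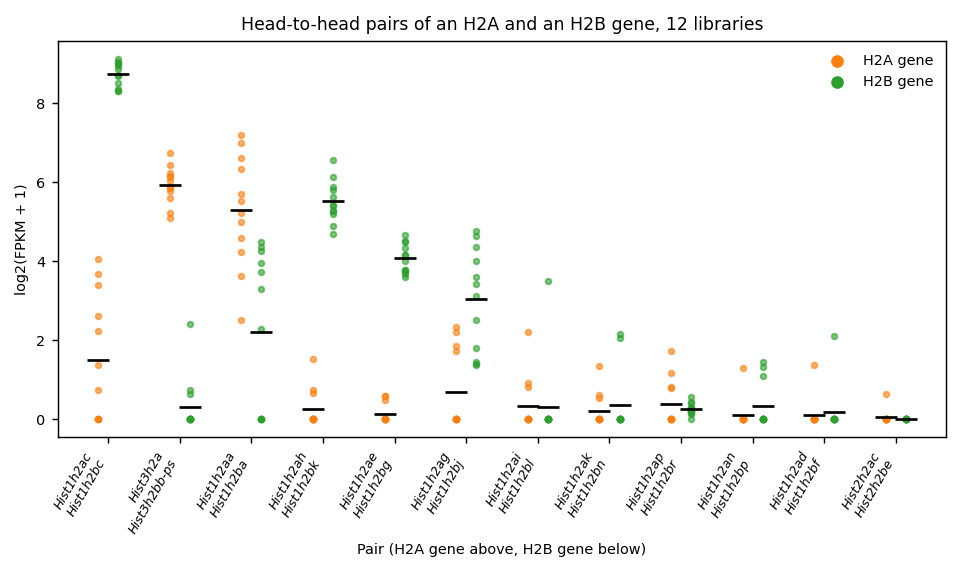
Levels of 12 head-to-head pairs of an H2A gene (orange) and an H2B gene (green), as log2(FPKM + 1); each point is 1 of 12 libraries and each bar the mean on that scale. In the leftmost pair the H2B gene Hist1h2bc (mean 438 FPKM) stands far above Hist1h2ac (mean 3.98 FPKM), and in the pairs of Hist3h2a and Hist1h2aa the H2A gene is the higher.

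The pair of Hist1h2aa and Hist1h2ba was the 1 of the 13 in which both partners passed the test as lower in polysomes than in the RNP pool of KO oocytes. Both partners were tested only in this pair and in those of Hist1h2ac with Hist1h2bc and Hist1h2ag with Hist1h2bj. In all other pairs at least 1 partner failed the filter. Hist1h2ba passed it through the RNP libraries (8.83, 12.3 and 19.6 FPKM), as its polysome libraries were at 0, 3.87 and 0 FPKM. Of all 9851 genes tested, 29.2% were called in either direction. Both calls were lost with all 12 libraries in 1 limma fit (adjusted p = 0.221 for Hist1h2aa and 0.101 for Hist1h2ba). The count therefore does not set this pair apart. The sequence between Hist1h2aa and Hist1h2ba is printed. It holds the 250 bases before the RefSeq start of Hist1h2aa on the plus strand of GRCm38.p6, at chr13:23934187-23934436, with matches to the TATA box (TATAAA), to the CCAAT box and to the octamer ATTTGCAT on either strand in capitals.
Hist1h2aa upstream: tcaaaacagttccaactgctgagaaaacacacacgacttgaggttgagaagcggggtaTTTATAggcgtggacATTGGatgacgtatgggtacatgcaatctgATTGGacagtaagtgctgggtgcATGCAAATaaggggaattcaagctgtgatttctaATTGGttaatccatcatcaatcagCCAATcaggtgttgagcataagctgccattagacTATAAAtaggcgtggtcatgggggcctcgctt

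This stretch has 2 TATAAA, 4 CCAAT and 1 ATTTGCAT match, which do not overlap. In windows of 250 bases before to 50 bases after the start, a gene was counted if any of its promoters held the letters. TATAAA occurred in 57.9% of 57 members with a RefSeq promoter and in 15.7% of all 27025 genes with a promoter in the table. CCAAT occurred in every matched H1, H2A, H2B and H3 gene, in 3 of 11 H4 genes and in 41.1% of all these genes. ATTTGCAT was seen in 7 of 17 H2A and 7 of 14 H2B genes, in no H1, H3 or H4 gene, and in 1.97% of all genes with a promoter. A match describes letters and not a site that is used.

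KO was compared with WT in the polysome pool to ask which histone mRNAs were found with ribosomes at another level without Lsm14b. Of the 67 members, 24 passed the filter of at least 1 FPKM in at least 3 libraries and were tested. Hist1h1e, a linker histone, and Hist1h4d were higher in KO, and Hist4h4 was lower (limma on log2(FPKM + 1), Benjamini-Hochberg adjusted p under 0.05). These 3 of 24 stand beside 10.4% of all 9536 genes tested, so the family's share was close to the background. The median change was -0.06 over the tested members and 0.10 over all genes, and the median SE was 0.80 against 0.42.

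Hist1h1e measured 0, 0 and 3.89 FPKM in WT polysomes and 19.7, 10.6 and 15.7 FPKM in KO polysomes. The genotypes did not overlap, and the difference was 3.23 on the log2(FPKM + 1) scale (SE 0.67, adjusted p = 0.0201). Hist1h4d measured 0, 18.2 and 0 FPKM in WT and 35.2, 59.9 and 61.3 FPKM in KO, a difference of 4.27 (SE 1.03, adjusted p = 0.0341). Here a single WT library was above 0, and it lay below all KO libraries. Hist4h4, the H4 gene outside the large clusters, measured 42.8, 40.2 and 14.3 FPKM in WT and 0, 3.70 and 8.86 FPKM in KO. All KO values lay below the lowest WT value, and the gene fell by 3.07 (SE 0.80, adjusted p = 0.0460). Hist1h4d and Hist4h4 encode the same H4 protein and moved in opposite directions.

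Each of the 3 calls was lost at a pseudocount of 0.1 and without the filter on low values, and those of Hist1h4d and Hist4h4 also without an intensity trend. Leaving out KO polysome library 1, 2 or 3 gave Hist1h1e an adjusted p of 0.0747, 0.0503 and 0.0702, and Hist1h4d 0.0774, 0.103 and 0.102. Hist1h4d was also lost without WT polysome library 1 (0.0763) or 3 (0.0751), and Hist4h4 without KO library 1 (0.0744) or 2 (0.0961) or WT library 1 (0.107) or 2 (0.0993). The differences kept their direction in all of these. Markers of granulosa cells, the somatic cells around the oocyte, had a higher sum in KO in this comparison. Their summed level over 14 genes was 27.2 to 75.5 FPKM in WT and 86.3 to 110.3 FPKM in KO polysomes. Of 8 tested, Fshr, Inha, Inhba and Gja1 were called higher in KO (50%, beside 10.4% of all genes). Only 4 of the 14 passed the filter between the 2 WT pools. Some of the 8 therefore passed it here only with the KO libraries, and the share is no test of these cells. Of the 14 genes, Cyp19a1 alone was at 1 FPKM or more in all 12 libraries, Lhcgr was listed at 0 in all, Foxl2, Amhr2 and Fst were at no more than 1.01 FPKM in any, and the part of these cells in the histone differences was not tested.

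**Figure D3:**
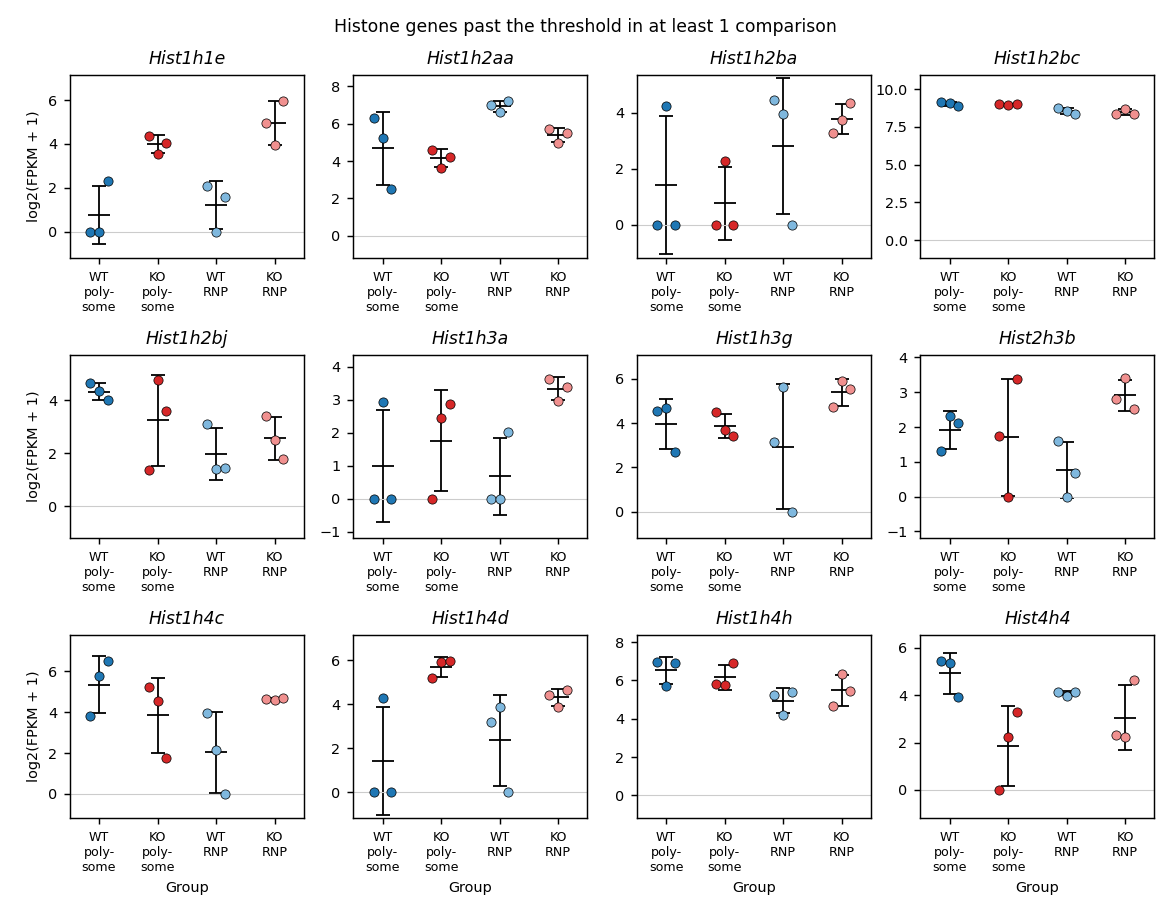
Level of the 12 histone genes that passed the threshold in at least 1 comparison, as log2(FPKM + 1) in 4 groups; points are the 3 libraries of a group, and bars give the mean and SD on that scale. For Hist1h1e the KO libraries lie above the WT libraries in both pools, and for Hist1h2aa the KO RNP libraries (30.7 to 51.0 FPKM) lie below the WT RNP libraries (97.7 to 146 FPKM).

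None of the other tested members reached the threshold in polysomes. Among the largest differences, Hist1h3f was at 0, 0 and 8.42 FPKM in WT and at 7.03, 7.92 and 7.03 FPKM in KO, which overlapped (difference 1.98, SE 0.83, adjusted p = 0.173). Hist1h2ac differed by -1.61 (SE 1.03, adjusted p = 0.362) and Hist1h4c by -1.51 (SE 0.93, adjusted p = 0.341). Hist1h2bc was within its spread, with a difference of -0.03 and a 95% interval of -0.27 to 0.21. For the other leading members the intervals were wider. Those of Hist1h1a (0.21 to 1.55) and Hist3h2a (0.04 to 1.40) lay above 0, but neither gene passed (limma adjusted p = 0.0924 and 0.168). Those of Hist1h4h (-1.29 to 0.54), Hist1h2bk (-0.19 to 1.54) and Hist1h2aa (-2.42 to 1.34) included 0.

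In the RNP pool, 30 members were tested. Hist1h1e, Hist1h3a, Hist1h4c and Hist2h3b were higher in KO and Hist1h2aa was lower, so that 5 of 30 passed the threshold beside 20.7% of all 9931 genes tested, a share somewhat under the background. The median change was -0.02 over these members and 0.05 over all genes.

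Hist1h1e had the largest difference of the members in this pool. It measured 3.19, 0 and 2.00 FPKM in WT and 30.1, 14.3 and 61.6 FPKM in KO, with no overlap and a difference of 3.73 (SE 0.62, adjusted p = 0.00338). This call held under all 15 alternative settings tried, with adjusted p-values of 0.0013 to 0.0238. Its polysome-to-RNP ratio did not differ detectably between genotypes (-0.51, SE 1.00, adjusted p = 0.898).

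Hist1h2aa, the testis-type H2A, measured 127, 97.7 and 146 FPKM in WT and 51.0, 30.7 and 45.1 FPKM in KO. Every KO library lay well below every WT library, and the gene fell by 1.54 (SE 0.21, adjusted p = 0.00146). In the polysome pool the WT libraries ranged from 4.66 to 79.2 FPKM and enclosed the KO values of 11.4 to 22.9 FPKM, with a difference of -0.54 (SE 0.83, adjusted p = 0.729). The RNP call held in 14 of 15 alternatives and was lost when all 12 libraries shared 1 estimate of the spread (adjusted p = 0.157). Its head-to-head partner Hist1h2ba measured 21.3, 14.6 and 0 FPKM in WT and 8.83, 12.3 and 19.6 FPKM in KO, which overlapped (difference 0.99, SE 0.99, adjusted p = 0.527).

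Of the H3 genes, Hist1h3a measured 0, 0 and 3.06 FPKM in WT and 11.4, 6.75 and 9.52 FPKM in KO (difference 2.65, SE 0.56, adjusted p = 0.0104). The genotypes did not overlap, and the call was lost only with all 12 libraries in 1 fit (0.0615). Hist2h3b measured 2.03, 0 and 0.613 FPKM in WT and 5.97, 9.57 and 4.76 FPKM in KO (difference 2.15, SE 0.48, adjusted p = 0.0127), and was lost without KO library 2 (0.0622), without the filter (0.0501) and with all 12 libraries in 1 fit (0.0588). All of its sequence is shared with other genes, so its reads may belong to them. The H4 gene Hist1h4c measured 14.5, 3.48 and 0 FPKM in WT and 23.9, 22.9 and 25.3 FPKM in KO (difference 2.61, SE 0.79, adjusted p = 0.0458). Its KO libraries were nearly equal and all higher than WT, but the call was lost without KO library 1 (0.104), 2 (0.105) or 3 (0.106) or WT library 2 (0.0768). It was also lost at a pseudocount of 0.1 (0.121), without the filter (0.145), without an intensity trend (0.107) and with all 12 libraries in 1 fit (0.098).

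Several further differences did not pass. Hist1h1c was at 5.48, 0 and 6.42 FPKM in WT and 11.7, 15.3 and 13.9 FPKM in KO, with an adjusted p of 0.0655. Hist1h3g measured 7.89, 48.7 and 0 FPKM in WT and 25.3, 59.1 and 45.8 FPKM in KO, with an adjusted p of 0.156. The first pair of groups did not overlap and the second did. Among the lower ones, Hist1h1d (-1.46, adjusted p = 0.328) and Hist2h2bb (-1.37, adjusted p = 0.3) showed the largest differences after Hist1h2aa, and in both the libraries overlapped. Without WT RNP library 2, 8 members were called in place of 5. The granulosa markers summed to 31.3 to 37.3 FPKM in WT RNP and 43.2 to 66.6 FPKM in KO RNP, where 1 of 4 tested, Inha, was called higher (25%, beside 20.7% of all genes).

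**Figure D4:**
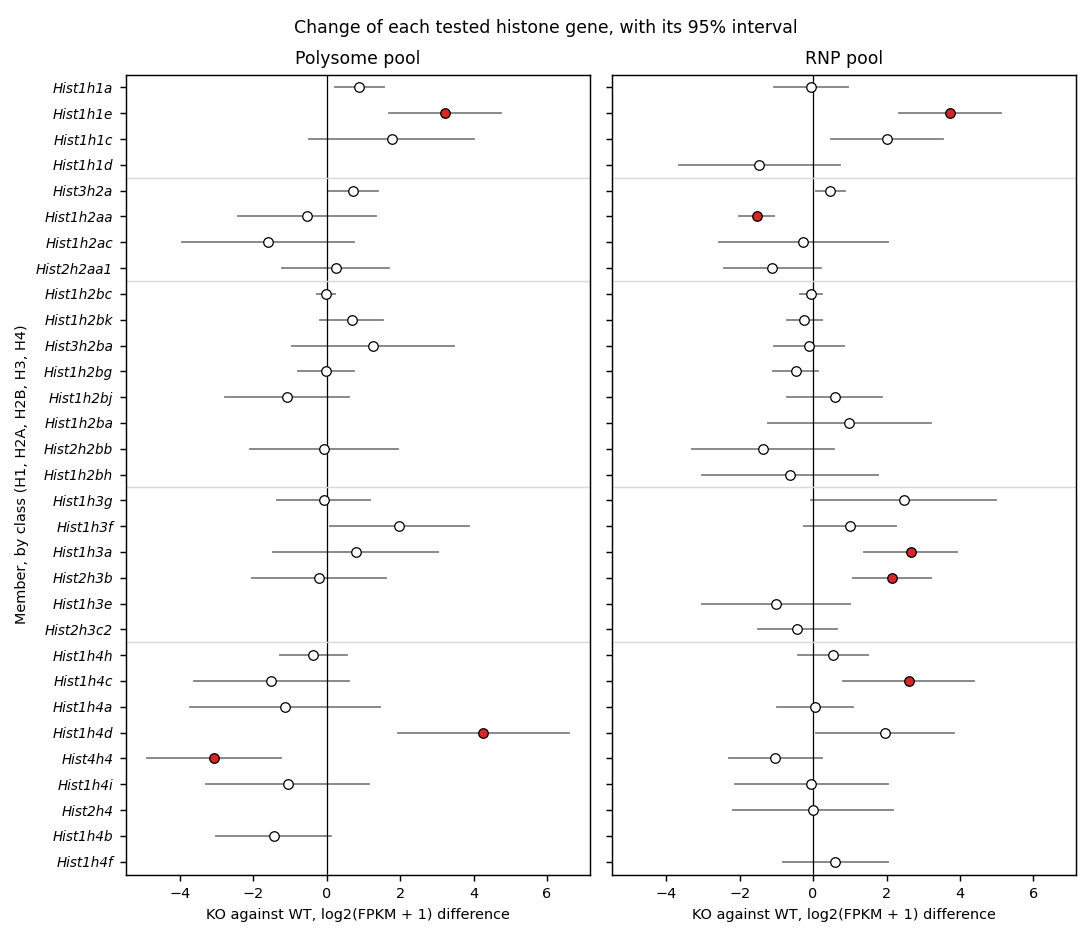
Difference of KO from WT on the log2(FPKM + 1) scale for each tested histone gene in the polysome pool (left) and RNP pool (right), with 95% intervals; filled red points passed the threshold. Hist1h1e is red on the right side of 0 in both pools, Hist1h2bc has the short intervals around 0, and most other intervals span more than 2 units.

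Sums were taken over each class, because reads divided between paralogs of a class stay within its sum. How far the division of reads affected the sums was not tested. Reads can also be shared with genes outside the class, as Hist3h2a shares windows with Trim17 and Hist2h2bb with Gm20628. The H1 sum in polysomes was 32.4, 20.3 and 22.2 FPKM in WT and 70.3, 58.0 and 50.2 FPKM in KO, and the H2A sum in the RNP pool was 186, 148 and 211 FPKM in WT and 123, 92.0 and 129 FPKM in KO. In these 2 of 10 combinations of class and pool the genotypes did not overlap. The log2 ratios of means were 1.25 (1.12 to 1.48 with each library left out) and -0.66 (-0.79 to -0.53). How often the genotypes do not overlap over all genes was not computed, so these 2 sums are not shown to stand out. The H2A difference came with that of Hist1h2aa, whose mean was 123 FPKM in WT and 42.3 FPKM in KO. The other 17 H2A genes summed to 59.7, 50.6 and 64.9 FPKM in WT and 71.7, 61.3 and 84.3 FPKM in KO, a log2 ratio of 0.31 with overlap. The other 5 H1 genes still did not overlap in polysomes without Hist1h1e, at 18.3 to 32.4 FPKM in WT and 34.5 to 50.5 FPKM in KO (log2 ratio 0.90). These sums without a member were chosen after the data were seen. H2B differed least, by 0.04 in polysomes (-0.02 to 0.09 with each library left out) and -0.12 in RNP. H3 in the RNP pool was at 17.6, 81.3 and 21.1 FPKM in WT and 67.0, 84.2 and 98.9 FPKM in KO, a log2 ratio of 1.06 that became 2.11 without WT library 2. H4 was at 225 ± 38.1 FPKM in WT and 174 ± 43.5 FPKM in KO polysomes, and at 102 ± 31.1 FPKM in WT and 150 ± 44.1 FPKM in KO RNP (SD, n = 3), and the libraries overlapped in both. The sums were given no test, because the members were chosen with earlier results known.

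**Figure D5:**
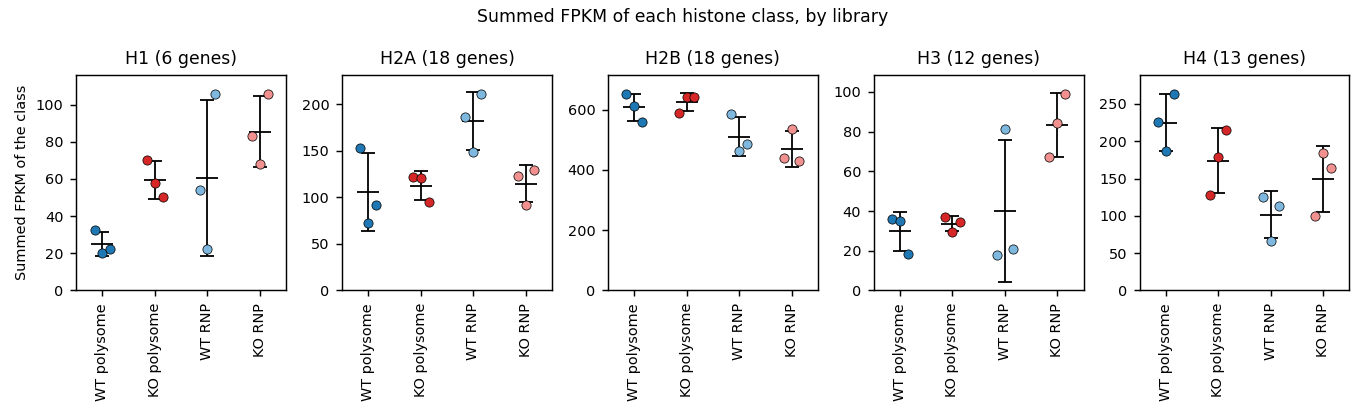
Summed FPKM of the 5 histone classes in 4 groups; points are the 3 libraries of a group, and bars give the mean and SD. The H1 panel shows all KO polysome libraries above the WT ones, the H2A panel shows all KO RNP libraries below the WT ones (a difference that turns to 0.31 on the log2 scale, with overlap, without Hist1h2aa), and the other panels overlap between genotypes in each pool.

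Whether the difference in level between the pools depended on genotype was tested in 1 model of all libraries, by its term for genotype and pool together. None of the 35 tested members passed, beside 0.237% of all 10949 genes, and 2 had an unadjusted limma p under 0.05 (5.71%, beside 11.1% of all genes). Those were Hist1h4c, with a difference of -4.12 (SE 1.40, adjusted p = 0.278), and Hist2h3b, with -2.36 (SE 1.00, adjusted p = 0.404). Hist1h3g also differed by a large and uncertain amount (-2.54, SE 1.45, adjusted p = 0.555). The differences seen in 1 pool only are thus not shown to differ between pools. At the other end were Hist1h4d (2.30, SE 1.51, adjusted p = 0.618), Hist1h3e (1.84, SE 1.25, adjusted p = 0.632) and Hist3h2ba (1.36, SE 1.19, adjusted p = 0.732).

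In WT, 3 of 28 tested members, beside 14.7% of all 9574 genes, differed in relative level between the pools, and all were higher in polysomes. They were Hist1h2bc (0.50, SE 0.13, adjusted p = 0.0336), Hist1h2bj (2.34, SE 0.53, adjusted p = 0.0202) and Hist1h4h (1.59, SE 0.41, adjusted p = 0.0343). Hist1h2bj measured 23.9, 19.4 and 15.0 FPKM in polysomes and 7.68, 1.64 and 1.73 FPKM in RNP, and Hist1h4h 125, 51.5 and 118 against 36.6, 17.5 and 41.1 FPKM. Neither overlapped between pools. Each of the 3 calls was lost without the filter on low values, and each depended on single WT libraries. Hist1h2bc and Hist1h4h were also lost without an intensity trend, and Hist1h2bc with quantile normalization. Hist1h2bc was lost without polysome library 1 (0.0816) or 2 (0.0710) or RNP library 2 (0.0931) or 3 (0.111), and Hist1h2bj without polysome library 1 (0.0543) or RNP library 2 (0.0635) or 3 (0.0654). Hist1h4h was lost without polysome library 1 (0.0866) or 3 (0.0881) or RNP library 1 (0.0626) or 2 (0.0931). Hist1h4c showed a larger difference (3.32, SE 0.99) with an adjusted p of 0.0562, and Hist1h4i one of 1.76 (SE 0.74, adjusted p = 0.155). The most negative were those of Hist1h2aa (-2.25, SE 0.80, adjusted p = 0.0961), Hist1h3f (-2.09, SE 0.93, adjusted p = 0.177) and Hist3h2ba (-1.77, SE 0.84, adjusted p = 0.202).

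In KO, 5 of 27 tested members passed, beside 29.2% of all 9851 genes. Hist1h2bc was again higher in polysomes, by 0.53 (SE 0.11, adjusted p = 0.00693), close to its difference in WT. Hist1h4d was higher too, at 35.2 to 61.3 FPKM in polysomes and 20.1, 13.8 and 24.2 FPKM in RNP (1.38, SE 0.27, adjusted p = 0.00481). Hist1h3g was lower, at 9.82 to 21.7 FPKM in polysomes and 25.3 to 59.1 FPKM in RNP (-1.51, SE 0.35, adjusted p = 0.0115). So were the testis-type variants, Hist1h2aa (-1.26, SE 0.28, adjusted p = 0.00895) and Hist1h2ba, which was at 0, 3.87 and 0 FPKM in polysomes (-3.04, SE 0.62, adjusted p = 0.0057). For none of these 5 did the pools overlap. No call was lost by leaving out a library, and without KO polysome library 3 there were 10. With all 12 libraries in 1 fit only Hist1h2bc remained, since adjusted p was 0.221 for Hist1h2aa, 0.101 for Hist1h2ba, 0.339 for Hist1h3g and 0.415 for Hist1h4d, while Hist1h2bc was lost without an intensity trend (0.0756). Beyond these, Hist1h4a (-2.19, SE 0.98, adjusted p = 0.128) and Hist1h3a (-1.57, SE 0.66, adjusted p = 0.109) had the largest differences below 0, and Hist2h2bb (1.01, SE 0.72, adjusted p = 0.332) and Hist1h4i (0.74, SE 1.11, adjusted p = 0.664) above 0. The other testis-type gene, Hist1h1t, was listed at 0 in all libraries.

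The genes that make and use the histone mRNA ends spanned a wide range of levels, and 14 of the 25 listed had a mean under 10 FPKM, beside 51 of the 67 histone genes. Slbp, the stem-loop binding protein, measured 652, 600 and 558 FPKM in WT polysomes and 408, 526 and 496 FPKM in KO polysomes (-0.34, SE 0.13, adjusted p = 0.123). In the RNP pool it was at 478, 530 and 495 FPKM in WT and 431, 453 and 436 FPKM in KO (-0.19, SE 0.07, adjusted p = 0.11). All KO values lay below the WT values in both pools, but neither difference passed. Lsm10 and Lsm11 are the Sm-like proteins of the U7 RNP. Lsm10 lay at 404 to 640 FPKM over the 12 libraries and Lsm11 at 3.25 to 10.0 FPKM, with adjusted p-values of 0.296 and 0.989 in polysomes. Npat and Casp8ap2, which act at the histone locus body, the nuclear site of histone transcription, lay at 1.14 to 10.2 FPKM and 31.6 to 70.6 FPKM and did not pass in either pool.

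Of the 25 genes in the list of histone mRNA processing and decay, 2 were called higher and 2 lower in KO in polysomes (of 21 tested), and likewise in RNP (of 23 tested). These were 19% beside 10.4% of all genes in polysomes and 17.4% beside 20.7% in RNP. Their median change was -0.01 in polysomes and 0.22 in RNP. Zfp473, the zinc finger protein of the U7 processing complex, measured 11.4, 9.72 and 7.31 FPKM in WT and 34.5, 32.6 and 21.5 FPKM in KO polysomes (1.53, SE 0.31, adjusted p = 0.0189), and was higher in KO RNP as well (0.99, adjusted p = 0.0353). Cstf2, a cleavage factor subunit, measured 5.81, 11.9 and 4.17 FPKM in WT and 33.2, 26.7 and 31.7 FPKM in KO polysomes (2.03, SE 0.38, adjusted p = 0.014), and was higher by 2.03 in RNP (adjusted p = 0.00248). For both genes the genotypes did not overlap in either pool.

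Eri1, an exonuclease that trims and degrades histone mRNA ends, measured 15.1, 12.8 and 7.01 FPKM in WT and 3.65, 1.01 and 2.33 FPKM in KO polysomes. It fell by 1.94 (SE 0.49, adjusted p = 0.0409), and in RNP by 1.17 (adjusted p = 0.0261). Ncbp2, a cap-binding subunit, fell by 1.18 in polysomes (adjusted p = 0.0229), and Upf1, a helicase of mRNA decay, fell by 0.91 in RNP (adjusted p = 0.01). Of 23 histone chaperone genes, 22 were tested. None passed in polysomes (5 at an unadjusted limma p under 0.05, or 22.7% beside 26.3% of all genes), and 3 did in RNP (13.6%, beside 20.7% of all genes), where Nap1l4 (0.67, adjusted p = 0.00277) and the oocyte chaperone Npm2 (0.52, adjusted p = 0.0189) were higher in KO and Anp32e (-2.30, adjusted p = 0.00875) was lower. The H3 and H4 chaperone Nasp lay at 61.7 to 136 FPKM over the 12 libraries and did not differ detectably (0.35 in polysomes, adjusted p = 0.298). Genes of cycling cells, which carry much of the histone mRNA of dividing tissue, summed to 174 to 239 FPKM over 8 genes, of which Cdc6 was called lower in KO in both pools, E2f1 lower in RNP, and Rrm2 and Pcna higher in RNP (12.5% of the 8 in polysomes and 50% in RNP, beside 10.4% and 20.7% of all genes).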

How the data were processed

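Reads of the 12 libraries were mapped by the authors to mm10 with TopHat2 2.0.13, and FPKM per gene was calculated with Cufflinks 2.2.1. The sources name random primers for the first cDNA strand, which need no poly(A) tail, beside Smart-seq2 amplification. How well mRNAs that end in a stem-loop were captured was not tested, so the ranking of members by FPKM may differ from that of their abundance. The sources differ on the top sucrose concentration (50% in the labels, 55% in the design text) and the library kit. The deposited FPKM were used as given. How reads with more than 1 match were divided, and the annotation, are not given in the sources used here. A further 54 deposited columns with the authors' log2 changes, p-values and q-values were not used.

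Groups were taken from the labels. Genes that reached 1 FPKM in 3 or more libraries of a comparison were tested with limma 3.58.1 in R 4.3.3 on log2(FPKM + 1), with an intensity trend, two-sided, and Benjamini-Hochberg adjustment over all genes tested at 0.05. Such differences understate the change of low genes. A gene could pass this filter through the 3 libraries of a single group, where it was high. On simulated data with 200 of 9536 genes of the polysome comparison changed by 1 or 2 on the log2 scale, 3.5% and 45% were recovered. With 200 of 9931 genes of the RNP comparison, 13% and 57.5% were. The changed genes were drawn from all tested genes, with a median SE of 0.42 in polysomes and 0.32 in RNP. Over the tested histone genes the median SE was 0.80 and 0.58, so the recovery can be lower for them. Sequences came from GENCODE M21 (GRCm38; all 67 symbols matched, 62 at the deposited locus) and the RefSeq promoter table (57 matched). The transcript with the longest sequence after the stop codon was used. Python 3.11.15 and matplotlib 3.10.9 served for counts and figures.

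Genes named were Lsm14b, every member past the threshold in any comparison, the 2 highest members of each class, the 3 members with the largest difference in each direction of a comparison (where they add to these), testis-type and replacement-type variants, pathway genes called between genotypes, central processing factors, and defining cell-type markers. Members and lists were chosen with earlier results of these data known. Alternatives were pseudocounts of 0.1 and 5, no filter and a filter at 5 FPKM, rescaling to equal medians, quantile normalization, no intensity trend, all 12 libraries in 1 fit, the replicate number as a block, and each library left out.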

Additional observations from a re-analysis of the deposited data

How the results depend on the processing

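Counts of histone genes called moved with the treatment of low values and of the spread, and the cause was not tested. In polysomes, the 3 calls between genotypes became 0 with a pseudocount of 0.1, 0 without a filter and 1 without an intensity trend, and 0 to 4 with 1 library left out. In the RNP pool, the 5 calls became 3 without a filter, 1 with all 12 libraries in 1 fit, and 3 to 8 with 1 library left out. Between pools, the 3 calls in WT became 0 without a filter, 5 with a filter at 5 FPKM, 1 without a trend, 6 with all 12 libraries in 1 fit, and 1 to 5 with 1 library left out, and the 5 calls in KO became 1 with all 12 libraries in 1 fit and 5 to 10 with 1 left out. The ratio had 0 calls in all 20 alternatives. None of the differences past the threshold changed sign. Among the class sums, those of H2A (-0.12 to 0.45), H2B (-0.02 to 0.09) and H3 (-0.07 to 0.34) in polysomes changed sign with 1 library left out. Without Hist1h2aa, an alternative chosen after the data were seen, the log2 ratio of the H2A sum was 0.31 in RNP and 0.54 in polysomes, and without Hist1h1e that of the H1 sum was 0.90 in polysomes and -0.23 in RNP. The log2 ratio of the H3 sum in RNP ranged from 0.703 to 2.11 with 1 library left out. The titles of the libraries give only a replicate number, and whether a polysome and an RNP library of the same number came from 1 gradient is not known here. Same-numbered libraries deviated with correlations of -0.0207 to 0.0255, which cannot show that the numbers carry no pairing. The main tests treated all libraries as independent. With the number as a block, 2 members were called in polysomes, where Hist4h4 was lost (adjusted p = 0.063), 5 in RNP, 0 in the ratio, 3 between pools in WT and 5 in KO. Without read counts, a value of 0 cannot be given a floor.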
